A study of Mus musculus with 6 samples.

Results

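The proteasome genes of mouse liver were taken as every listed gene whose symbol is Psm followed by a letter from a to g and a number, without pseudogenes marked as such. The rule found 49 of the 20673 genes in the count table, and it used no measured value. Liver RNA came from C57BL/6J mice of about 12 weeks, 3 fed a regular diet (RD) and 3 fed a high cholesterol diet (HCD) for 3 days, with 1 library per mouse. The HCD held cholesterol, cocoa butter and sodium cholate, so that its effects cannot be told apart from those of the bile salt or the fat. No engineered allele is named for either group, and the only comparison is HCD against RD.

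The 26S proteasome is the protease that breaks down proteins tagged with ubiquitin. Its barrel, the 20S core, is built from stacked rings of alpha subunits, which form the gate, and beta subunits, of which Psmb5, Psmb6 and Psmb7 carry the active sites. The 19S cap recognises and unfolds the tagged protein with a ring of ATPases and feeds it into the core. Interferon-induced beta subunits, Psmb8, Psmb9 and Psmb10, can replace the constitutive active sites to give the immunoproteasome, and other activators such as PA28 and PA200 can take the place of the cap. Dedicated chaperones assemble each part.

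By role, the 49 genes were 8 alpha and 7 constitutive beta subunits of the core, 3 immunoproteasome subunits, 6 ATPases and 11 other subunits of the cap, 5 activators or inhibitors, 7 assembly chaperones and 2 genes of no class. The last were Psme2b, a copy of Psme2 without introns, and Psmc3ip, a recombination factor that shares the name of an ATPase it binds. All but Psmc3ip passed the filter on low counts, so that 48 were tested. Psmc3ip lay between 0 and 0.414 CPM (counts scaled to the size of each library by the TMM method) in the 6 livers.

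The RD libraries held between 13771630 and 23129576 counts, and the HCD libraries between 13935491 and 18545549. Xist, transcribed from the inactive X chromosome of females, had 5032 counts in HCD1 and 0 in the other 5 livers, while the Y-linked Ddx3y had 0 counts in HCD1 and 426 to 1229 elsewhere, so that 1 HCD liver differed in sex from the rest. The libraries of the diets also carry names of different schemes, and diet cannot be told apart from any difference in handling that went with it. Hepatocyte markers (Alb and 5 others) summed to 88743 to 118968 CPM with RD and 95761 to 134982 CPM with HCD, and none of the 6 passed the edgeR test. Most of each sum was Alb, at 63316 to 91138 CPM with RD and 70712 to 105649 CPM with HCD. Ttr was higher and Serpina1a lower in all HCD livers than in all RD livers, orders shown by 14.0% and 13.7% of all genes tested. The rest overlapped. In whole liver, fewer cells of a type and less RNA per cell cannot be told apart.

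In all, 3 of the 48 tested proteasome genes rose with HCD and none fell, where 3.27% of the 13105 genes tested passed in either direction and 1.95% passed as higher (edgeR quasi-likelihood test, Benjamini-Hochberg adjusted p under 0.05). The 3 were Psme2, Psma2 and Psmg4, which belong to an activator, the core and a core chaperone. Before adjustment, 15 of the 48 were at or below a p of 0.05, 14 of them higher, against 20.9% and 11.1% of all genes. DESeq2 called 7 of the 48, against 8.53% of all genes, and added Psma7, Psmb10 and Psme1 as higher and Psme2b as lower. The median log2 fold change was 0.14 over the 48 genes and 0.01 over all genes tested, and 38 of the 48 lay above 0, as did 50.7% of all genes. All HCD livers were above all RD livers for 16 of the 48 genes and below for 2, against 14.0% and 13.7% of all genes. Psma8, with 5 or 6 counts per RD library, passed the filter on low counts only through its HCD livers. It is counted among the 14, the 38 and the 16. Without HCD3 the median over the members was 0.03, and without HCD1 it was 0.24.

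**Figure D1:**
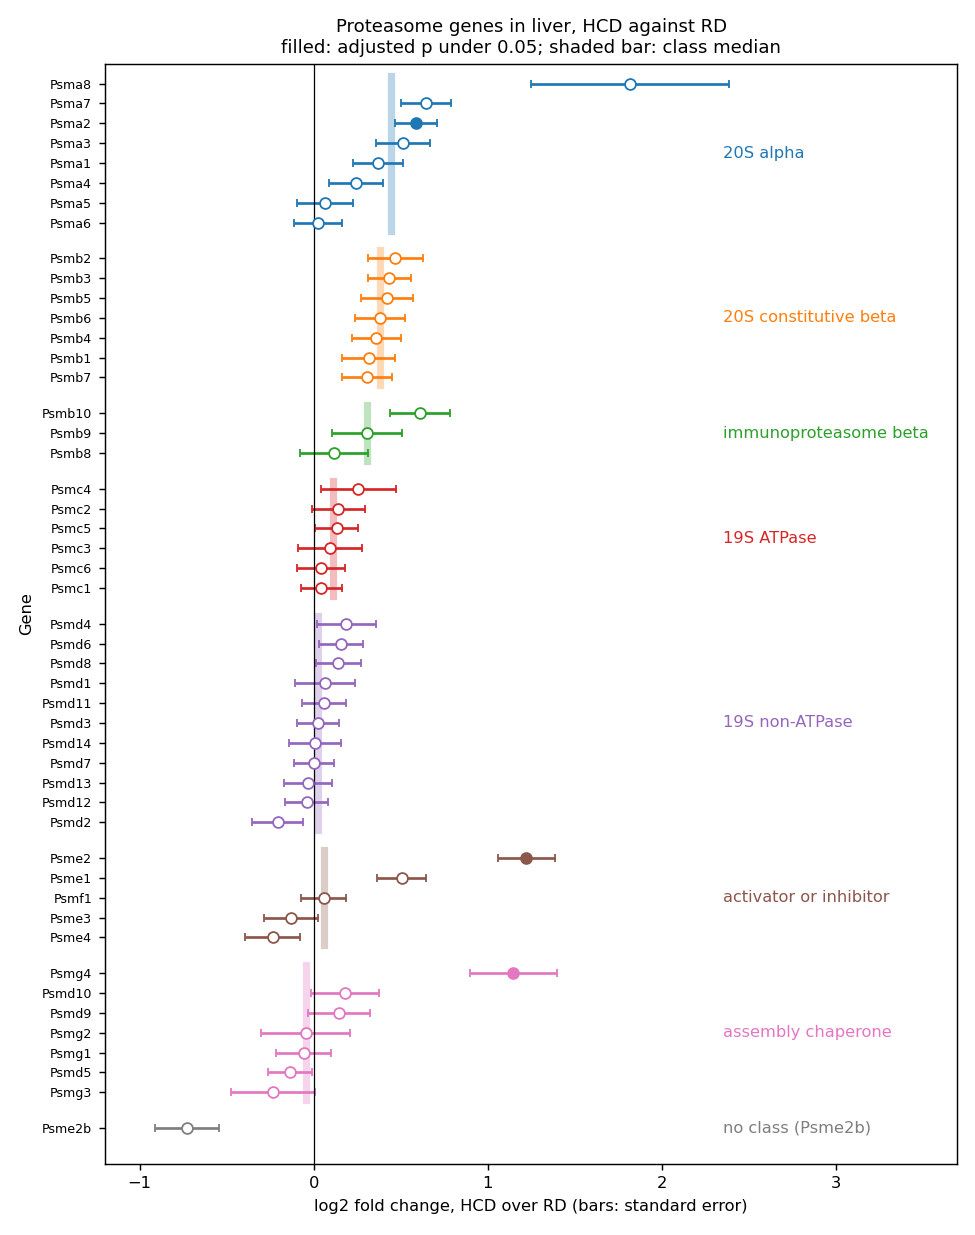
Log2 fold change of HCD over RD for the 48 tested proteasome genes, with bars of 1 standard error, grouped by role; filled points passed an adjusted p of 0.05 and the shaded bar is the class median. The core genes lie to the right of 0, with medians of 0.44 (alpha) and 0.38 (beta). The cap genes lie closer to 0, 14 of 17 above it, with medians of 0.11 (ATPases) and 0.03 (other subunits).

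Psme2 encodes the beta subunit of PA28, the ring that opens the core without ATP and is itself induced by interferon. It had 24.8, 23.6 and 24.1 CPM in the RD livers and 53.5, 46.9 and 68.6 CPM in the HCD livers. The RD livers lay close together, and every HCD liver was above all of them. The log2 fold change was 1.22 ± 0.16 (SE, n = 3 per diet; edgeR adjusted p = 0.013). The call was lost without RD1 (adjusted p = 0.070) or RD2 (adjusted p = 0.071).

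This count depends on which locus a read was given to, because Psme2b on chromosome 11 is nearly the same sequence. In GENCODE M21 on GRCm38, Psme2 (ENSMUSG00000079197) lies at chr14:55587441-55591113 on the minus strand with 11 exons in the transcript compared, and Psme2b (ENSMUSG00000078153) lies at chr11:48945354-48946190 on the minus strand in 1 exon. Their coding sequences have the same 717 bases in length and differ by 5 substitutions, C312T, A369G, C489T, C519T and C543T, with the Psme2 base first and positions counted from 1 at the start of the coding sequence. The longest stretch without a difference was 311 bases. The 2 windows that hold the substitutions are shown because the coding bases outside them are the same in both genes. Capitals mark the differing bases, and the windows span coding bases 301 to 380 (Psme2 chr14:55588493-55589360, across introns, and Psme2b chr11:48945739-48945818) and 481 to 550 (Psme2 chr14:55588042-55588249, across introns, and Psme2b chr11:48945569-48945638), all on the minus strand.
Psme2, coding bases 301 to 380: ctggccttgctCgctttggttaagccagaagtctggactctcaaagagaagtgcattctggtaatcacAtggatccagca
Psme2b, coding bases 301 to 380: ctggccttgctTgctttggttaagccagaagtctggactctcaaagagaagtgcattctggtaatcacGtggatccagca
Psme2, coding bases 481 to 550: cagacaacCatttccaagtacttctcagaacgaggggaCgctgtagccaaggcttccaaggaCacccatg
Psme2b, coding bases 481 to 550: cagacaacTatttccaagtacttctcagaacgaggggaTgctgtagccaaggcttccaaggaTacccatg

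The copy moved the other way. Psme2b had 29.9, 27.3 and 37.0 CPM with RD and 20.5, 15.2 and 21.2 CPM with HCD, each HCD liver below every RD liver. Its log2 fold change was -0.73 ± 0.18 (SE, n = 3 per diet; edgeR adjusted p = 0.071), and it passed with DESeq2 (adjusted p = 0.017), without the filter on low counts (adjusted p = 0.042) and after a correction for gene length (adjusted p = 0.042). Of the counts given to both genes, Psme2 took 45.3%, 46.3% and 39.4% in the RD livers and 72.3%, 75.5% and 76.4% in the HCD livers.

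When both genes were added, the RD livers held 54.7, 50.9 and 61.1 CPM and the HCD livers 74.0, 62.1 and 89.7 CPM. The HCD livers were still above the RD livers, with HCD2 only just above RD3. The log2 fold change of the sum was 0.44 and did not pass (adjusted p = 0.17, in an edgeR fit in which 10 other members also had the counts of their listed copies added). That fit called 2 members, Psma2 and Psmg4, where 3.22% of all genes passed. How reads that match both loci were treated is not stated in the sources used here. If they were left out, the sum and the shares cover only reads that could be placed at 1 locus, so that the call for Psme2 applies to the counts assigned to its locus.

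**Figure D2:**
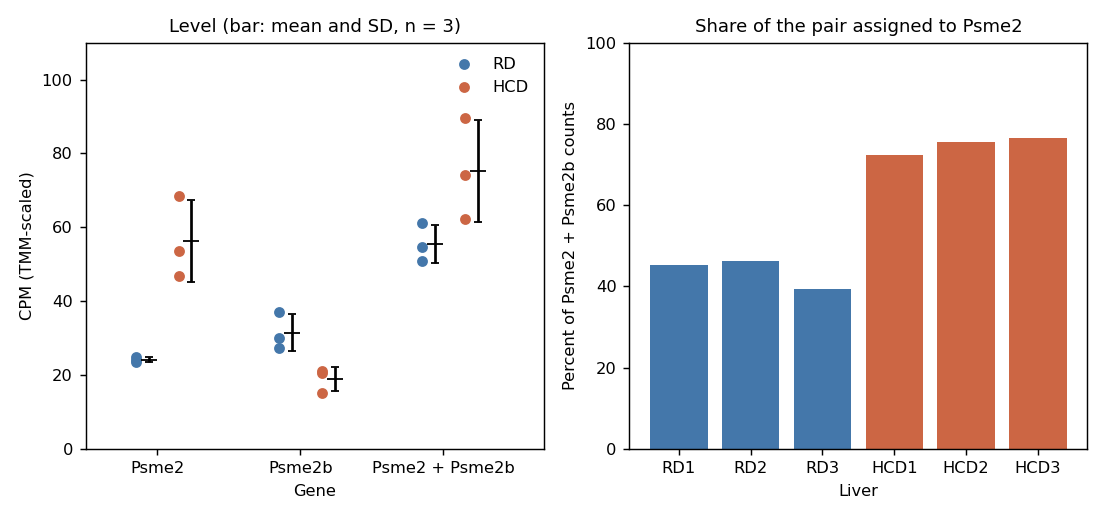
Left, CPM of Psme2, Psme2b and their sum in each liver (points), with the mean and SD of 3 livers per diet; right, the percent of the pair's counts assigned to Psme2 in each liver. The RD and HCD livers are far apart for Psme2 and for its share, 39.4% to 46.3% against 72.3% to 76.4%, and close for the sum.

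The partner of Psme2 in the PA28 ring, Psme1, had 75.0, 61.1 and 79.5 CPM with RD and 93.6, 104 and 109 CPM with HCD. All HCD livers were above all RD livers, with a log2 fold change of 0.51 ± 0.14 (SE, n = 3 per diet; edgeR adjusted p = 0.095). It was named after its values were seen, as the partner of a called gene. The other members of the class lay near or below 0. Psmf1, the inhibitor PI31, had a log2 fold change of 0.06, Psme3, the nuclear PA28 gamma, -0.13, and Psme4, the activator PA200, -0.24 (edgeR adjusted p = 0.43), the lowest of the class.

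In the 20S core, the log2 fold change was above 0 for all 15 genes, from 0.02 to 1.82 with a median of 0.38, while 1 gene passed the test. The HCD livers were all above the RD livers for 12 of the 15, and for 11 of 14 without Psma8, where 14.0% of all genes tested showed that order. Before adjustment 10 of the 15, and 9 of 14 without Psma8, were at or below an edgeR p of 0.05, all higher, as were 11.1% of all genes. Of the alpha subunits, Psma2, part of the ring that gates the core, had 58.5, 58.0 and 57.2 CPM with RD and 84.4, 80.2 and 96.2 CPM with HCD. The RD values spanned less than 2 CPM, and the lowest HCD liver was well above them. Psma2 rose by 0.59 ± 0.12 on the log2 scale (SE, n = 3 per diet; edgeR adjusted p = 0.042), a call that was lost when any single liver was left out (adjusted p 0.058 to 0.19) and after the correction for gene length (0.60, adjusted p = 0.062).

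The other alpha subunits ranged widely. Psma7, named after its values were seen because it lay just outside the threshold, had a log2 fold change of 0.65 ± 0.15 (SE, n = 3 per diet; edgeR adjusted p = 0.052). Psma6 was the lowest of the class at 0.02, with 90.9, 77.6 and 91.6 CPM with RD against 81.7, 82.7 and 100 CPM with HCD, and these overlapped. Psma8, the alpha subunit of the testis, was close to the limit of detection, with 0.240, 0.419 and 0.261 CPM with RD and 1.01, 1.17 and 1.05 CPM with HCD, where 3 counts correspond to 0.130 to 0.243 CPM. Its log2 fold change of 1.82 ± 0.57 was the largest of the members and did not pass (SE, n = 3 per diet; edgeR adjusted p = 0.12), although limma on log2(FPKM + 1) called it (adjusted p = 0.034). Without Psma8 the median of the core was 0.38.

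The 7 constitutive beta subunits were more alike, with log2 fold changes from 0.30 to 0.47, and none passed. Psmb2 was the highest, at 51.7, 49.1 and 46.5 CPM with RD and 55.5, 67.9 and 80.6 CPM with HCD (log2 fold change 0.47, edgeR adjusted p = 0.14). The active-site subunits had log2 fold changes of 0.42 for Psmb5, of chymotrypsin-like activity, 0.38 for Psmb6, of caspase-like activity, and 0.30 for Psmb7, of trypsin-like activity. For each of these 4 genes all HCD livers were above all RD livers, as for 14.0% of all genes tested. The edgeR adjusted p lay between 0.14 and 0.27. For Psmb7 the groups nearly met, at 67.39 CPM in RD2 and 67.48 CPM in HCD1.

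The naming rule takes in 17 genes of the 19S cap and leaves out the cap subunits Sem1, which was called, and Adrm1, both given with the pathway genes. The 17 had a median log2 fold change of 0.06, from -0.21 to 0.26. Of the 17, 14 lay above 0, as did 50.7% of all genes, and all 6 ATPases were among the 14. The diets overlapped in CPM for all 17, as they did for 72.4% of all genes. None of the 17 passed the edgeR test, none was at or below a p of 0.05 before adjustment (20.9% of all genes), and none was called by DESeq2 (8.53% of all genes). Among the ATPases, Psmc4 had the highest value, 0.26 (edgeR adjusted p = 0.53), with 89.5, 87.2 and 76.8 CPM with RD and 68.9, 105 and 129 CPM with HCD. The HCD livers of Psmc4 spread on both sides of the RD livers, with HCD1 the lowest of the 6. Psmc1 had the lowest value of the ATPases, 0.04 (edgeR adjusted p = 0.86). Among the other subunits the values ran from -0.21 for Psmd2, a large scaffold that receives ubiquitin-like domains (edgeR adjusted p = 0.46), to 0.19 for Psmd4, a receptor for ubiquitin chains (edgeR adjusted p = 0.57).

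Summed CPM set the core beside the cap within each liver. The 15 core genes summed to 1125, 1038 and 1107 CPM with RD and 1255, 1374 and 1585 CPM with HCD, without overlap. The 17 cap genes summed to 1562, 1468 and 1487 CPM with RD and 1351, 1583 and 1751 CPM with HCD, which overlapped. The ratio of the sums, which does not depend on how libraries were scaled, was 0.720, 0.707 and 0.744 with RD and 0.929, 0.867 and 0.905 with HCD. HCD1 had the lowest cap sum of the 6 livers and the highest ratio. These sums describe counts, in which longer transcripts weigh more, and the ratio was not tested because the grouping was chosen with earlier results of these data known.

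**Figure D3:**
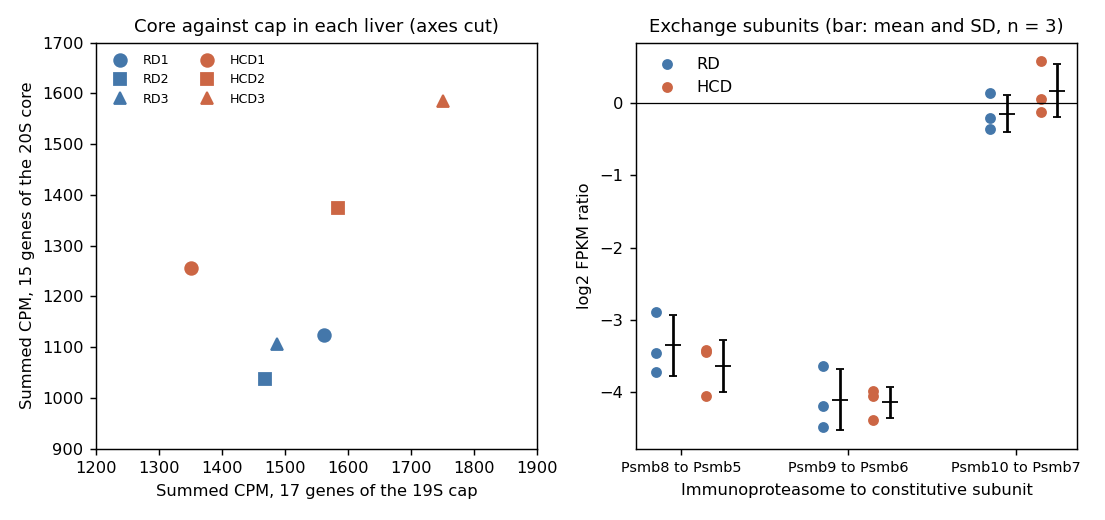
Left, summed CPM of the 15 core genes against the 17 cap genes in each liver, on axes that do not start at 0; right, log2 FPKM ratio of each immunoproteasome subunit to its constitutive counterpart, with the mean and SD of 3 livers per diet. The HCD livers have more core per cap, with ratios of 0.867 to 0.929 against 0.707 to 0.744, while the diets overlap for the 3 exchange ratios.

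The livers differed among themselves as well as by diet. HCD3 was the highest liver for 27 of the 48 genes, and RD2 was the lowest for 20 and HCD1 for 13. As medians of each gene's deviation from its mean over the 6 livers, in log2 CPM, the alpha subunits stood at -0.22, -0.27 and -0.11 with RD and at 0.00, 0.17 and 0.42 with HCD. The constitutive beta subunits stood at -0.15, -0.22 and -0.23 with RD and at -0.01, 0.17 and 0.37 with HCD. For the ATPases of the cap the same medians were -0.02, -0.08 and -0.06 with RD and -0.14, 0.03 and 0.29 with HCD, so that HCD1 fell below all RD livers and HCD3 above. In core and cap alike HCD1 was the lowest of the HCD livers and HCD3 the highest. The coefficient of variation of the members had a median of 7.48% between RD livers and 13.5% between HCD livers, against 15.3% and 20.9% over all genes tested. Without HCD3 the median log2 fold change of the core was 0.25 and that of the cap -0.02, and without HCD1 they were 0.48 and 0.12.

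**Figure D4:**
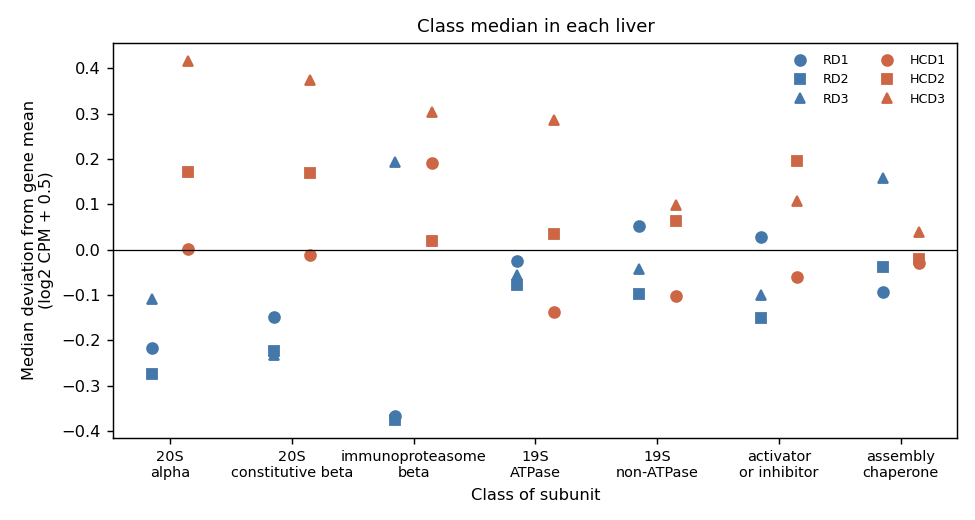
Median deviation of the genes of each class from their mean over 6 livers, in log2(CPM + 0.5), for each liver. All 3 HCD livers lie above all 3 RD livers in the alpha and constitutive beta classes, and the diets overlap in the other 5 classes, with HCD1 lowest and HCD3 highest for the ATPases.

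The immunoproteasome subunits, which are made by leukocytes and induced in other cells by interferon, did not pass the test. Psmb10 had 28.1, 26.2 and 34.5 CPM with RD and 50.5, 36.8 and 48.5 CPM with HCD, each HCD liver above every RD liver. Its log2 fold change was 0.61 ± 0.17 (SE, n = 3 per diet; edgeR adjusted p = 0.097), and DESeq2 called it (adjusted p = 0.042). Psmb9 had 9.66, 11.0 and 15.2 CPM with RD and 15.1, 14.7 and 14.6 CPM with HCD, with RD3 above all HCD livers (log2 fold change 0.31, edgeR adjusted p = 0.42). Psmb8 overlapped throughout, with 21.6, 16.8 and 25.5 CPM with RD and 22.6, 19.6 and 27.2 CPM with HCD (log2 fold change 0.12, edgeR adjusted p = 0.78).

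Each immunoproteasome subunit was set against the constitutive subunit it replaces, per length in FPKM. The log2 ratio of Psmb8 to Psmb5 was -3.36 ± 0.43 (SD, n = 3) with RD and -3.65 ± 0.36 with HCD. For Psmb9 to Psmb6 it was -4.11 ± 0.43 with RD and -4.15 ± 0.21 with HCD, and for Psmb10 to Psmb7 it was -0.14 ± 0.25 with RD and 0.18 ± 0.37 with HCD. The differences of HCD minus RD, -0.29, -0.04 and 0.32, had two-sided exact permutation p-values of 0.60, 1.0 and 0.30, where 0.10 is the smallest possible with 3 against 3 livers, and adjusted over the 3 ratios they were 0.90, 1.0 and 0.90. The differences moved when a liver was left out. That of Psmb8 to Psmb5 was -0.06 without RD3, -0.08 without HCD2 and -0.47 without RD2, that of Psmb9 to Psmb6 ran from -0.23 without RD1 to 0.19 without RD3, and that of Psmb10 to Psmb7 was 0.11 without HCD1, 0.21 without RD2 and 0.46 without HCD2. Psmb8 and Psmb9 were thus well below their constitutive counterparts and Psmb10 near its own. A limit is that FPKM divide by a fixed length per gene, which need not be that of the transcripts made in liver. These lengths were 2736 bases for Psmb8 and 899 for Psmb5, as implied by their counts and FPKM. An exon of Psmb7 also overlaps Nek6 on the opposite strand by 253 bases, and the genes had 7414 and 7343 counts in all. Reads there cannot be told apart if the counting ignored strand, which is not stated in the sources used here.

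Markers of Kupffer cells and other leukocytes summed to 117, 140 and 175 CPM with RD and 289, 276 and 143 CPM with HCD, and 1 of the 7 tested of 10 listed, Cd68, rose (log2 fold change 1.24, edgeR adjusted p = 0.028). The call for Cd68 was lost without any single liver other than HCD2 (adjusted p 0.051 to 0.13) and after the correction for gene length (adjusted p = 0.050). Cd3e, Cd79a and Itgam, which define T cells, B cells and myeloid cells, lay at 0 to 1.46 CPM in every liver. Cd68 itself had 3.85, 4.33 and 5.12 CPM with RD and 10.5, 9.79 and 11.3 CPM with HCD. The leukocyte sum and Psmb10 were both highest in HCD1, and Cd68 and the core sum were both highest in HCD3. Psmb10 was at 36.8 CPM in HCD2 and 48.5 CPM in HCD3. Of the 5 red cell markers 2 rose, Hba-a1 from 15.3 to 36.7 CPM with RD to 77.1 to 176 CPM with HCD (log2 fold change 2.41) and Hbb-bs from 14.9 to 38.6 CPM to 80.6 to 167 CPM (2.28), calls that were lost without RD1, RD2 or HCD3 (edgeR adjusted p 0.074 to 0.11). The summed red cell markers, 138 to 239 CPM with RD and 177 to 468 CPM with HCD, overlapped and held much Alas2, which had 105, 105 and 154 CPM with RD and 8.24, 97.0 and 119 CPM with HCD. Of the markers of endothelium, stellate cells and cholangiocytes none of 16 passed the edgeR test. DESeq2 called 1 of them, the endothelial Cdh5 (adjusted p = 0.043), at 8.65 to 15.7 CPM with RD and 16.7 to 29.1 CPM with HCD, and among the other lists it added Hbb-bt of red cells and Ttr of hepatocytes. The stellate cell markers summed to 177 to 193 CPM with RD and to 338, 180 and 262 CPM with HCD. The part of other cell types in the values of the proteasome genes was not tested.

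Psmb9 and Tap1, the peptide transporter that carries its products into the endoplasmic reticulum, start 225 bases apart on opposite strands, and in GENCODE M21 their exons overlap by 212 bases. The sequence between the RefSeq starts (GRCm38.p6, chr17:34187331-34187555, minus strand) is shown because the genes start at its ends, with a CCAAT motif in capitals as read on the strand of Psmb9, where it begins 8 bases before the start.
Psmb9 to Tap1: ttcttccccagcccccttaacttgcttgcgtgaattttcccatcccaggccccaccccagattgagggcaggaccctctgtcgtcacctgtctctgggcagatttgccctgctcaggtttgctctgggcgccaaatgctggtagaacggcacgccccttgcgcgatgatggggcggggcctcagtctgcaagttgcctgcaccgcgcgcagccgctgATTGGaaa
Tap1 had 34.4, 32.1 and 35.1 CPM with RD and 27.3, 27.2 and 25.0 CPM with HCD, each HCD liver below every RD liver (log2 fold change -0.35, edgeR adjusted p = 0.16), whereas Psmb9 was at 0.31. Whether the counting used the strand is not stated in the sources used here, and reads in the shared bases cannot be told apart without it.

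Among the assembly chaperones, Psmg4, a partner of Psmg3 in placing the alpha ring, had 3.80, 3.84 and 5.56 CPM with RD and 11.1, 9.44 and 8.75 CPM with HCD. All HCD livers were above all RD livers, at 55 to 220 counts per library. Psmg4 rose by 1.15 ± 0.25 on the log2 scale (SE, n = 3 per diet; edgeR adjusted p = 0.048). The call was lost when any single liver was left out (adjusted p 0.062 to 0.20) and after the correction for gene length (0.86, adjusted p = 0.13), and at 555 bases Psmg4 was the shortest member. Psmg3 was the lowest of the class, with 7.45, 6.63 and 7.21 CPM with RD and 5.71, 7.45 and 4.94 CPM with HCD (log2 fold change -0.23, edgeR adjusted p = 0.62). The median of the 7 chaperones was -0.05, and the remaining 5 lay between -0.14 and 0.18.

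Fold changes in these libraries went with gene length, taken here as all exons of a gene in GENCODE M21. The length implied by counts and FPKM was within 1% of it for all members but 3, Psma8 (1693 against 2494 bases), Psmg2 (1059 against 1738) and Psmb8 (2736 against 3381). The median log2 fold change over all genes fell from 0.32 in the shortest of 10 groups of equal size (57 to 1436 bases) to -0.17 in the longest (9709 bases and more), and the members were shorter than most genes, with a median of 2804 bases against 4235 for all genes tested. After the trend with length was taken out, the medians were 0.44 for the alpha subunits, 0.27 for the constitutive beta subunits, 0.04 for the ATPases and 0.09 for the other cap subunits. The core as a whole then had a median of 0.31 and the cap 0.05. With that correction 2 members were called, Psme2 as higher and Psme2b as lower, where 1.92% of all genes passed.

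**Figure D5:**
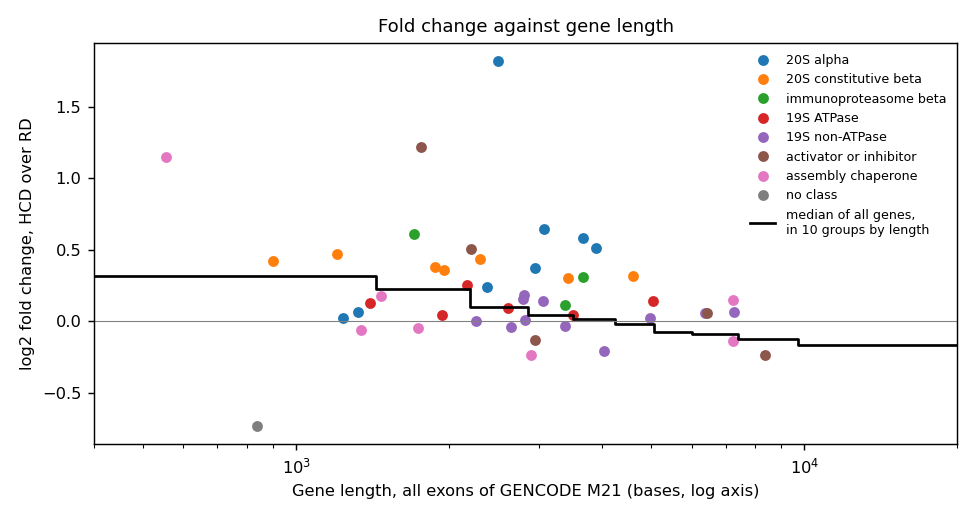
Log2 fold change of HCD over RD against gene length in GENCODE M21 (log axis) for the 48 tested members, with the median of all genes in 10 groups by length as a stepped line. The median of all genes falls from 0.32 to -0.17 with length, and the alpha subunits at 2370 to 3894 bases lie above it, while the shorter Psma5 and Psma6 lie below.

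Genes that work with the proteasome were taken from a fixed list of 39, of which 38 were listed and 37 tested. Of these 37, 2 rose with HCD and none fell, where 3.27% of all genes passed in either direction and 1.95% as higher. The median log2 fold change of the list was -0.05, with 17 genes above 0 and 20 below, against 50.7% of all genes above 0. Adrm1, a ubiquitin receptor of the cap, had a log2 fold change of 0.24 (edgeR adjusted p = 0.42). Sem1, the small cap subunit also called Rpn15, had 23.8, 20.2 and 23.1 CPM with RD and 41.5, 35.7 and 45.5 CPM with HCD, without overlap (log2 fold change 0.87 ± 0.15, SE, n = 3 per diet; edgeR adjusted p = 0.026). Zfand5, a zinc finger protein that stimulates the 26S proteasome, had 41.7, 41.8 and 38.5 CPM with RD and 69.8, 61.2 and 69.6 CPM with HCD, without overlap (log2 fold change 0.72 ± 0.12, SE, n = 3 per diet; edgeR adjusted p = 0.026). Both calls were lost without RD1, RD2, RD3 or HCD3, with adjusted p of 0.066 to 0.12 for Sem1 and 0.077 to 0.13 for Zfand5.

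Of 5 genes of transcription control, 4 were tested, without Nfe2l3, and none passed. Nfe2l1, the transcription factor that raises all subunits when the proteasome is impaired, had a log2 fold change of -0.25 (edgeR adjusted p = 0.38). Ddi2, the protease that activates it, had -0.41 (edgeR adjusted p = 0.13). Both were lower in all HCD livers than in all RD livers, as were 13.7% of all genes. Akirin2 had 0.19 (edgeR adjusted p = 0.49) and was higher in all HCD livers, as were 14.0% of all genes. Ngly1 had -0.19 (edgeR adjusted p = 0.62), with overlap. None of the 3 unfoldase genes, 6 genes of ubiquitin and its activation, 6 bound deubiquitinases, ligases and other proteins or 8 antigen processing genes passed, and of the 7 shuttles only Zfand5 did. The named examples Nfe2l1, Nfe2l3, Ddi2, Akirin2, Ngly1, Adrm1 and Tap1 were chosen after their values were seen.

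Promoters were read from RefSeq (GRCm38.p6), where 41 of the 49 genes had a window, and the 250 bases before each start were searched on both strands. The motif CCGGAAG, bound by ETS factors, stood in 6.91% of all 32851 windows, in 8 of 14 cap genes and in 1 of 11 core genes with a window, Psma6. CCAAT stood in 33.8% of all windows, in 4 of the 14 cap genes and 6 of the 11 core genes. TGANNNNGC, the core shared by antioxidant response elements, stood in 35.2% of all windows, in 4 cap and 5 core genes. In windows of 300 bases, with 50 bases after the start, CCGGAAG stood in 8.86% of all windows, in 9 of the 14 cap genes and 1 of the 11 core genes, and TGANNNNGC stood in 41.3% of all windows, in 6 cap and 8 core genes. These are 3 of the 8 motifs that were looked at, the difference between cap and core in CCGGAAG was noticed in these windows and not tested, and a match does not show a site.

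The 3 windows that follow show a called core gene without CCGGAAG (Psma2, chr13:14612992-14613241), the core gene that has it and lay near 0 (Psma6, chr12:55398575-55398824, the second of its 2 starts) and a cap gene that has it (Psmd12, chr11:107479278-107479527, log2 fold change -0.04), all on the plus strand, with the motif in capitals.
Psma2: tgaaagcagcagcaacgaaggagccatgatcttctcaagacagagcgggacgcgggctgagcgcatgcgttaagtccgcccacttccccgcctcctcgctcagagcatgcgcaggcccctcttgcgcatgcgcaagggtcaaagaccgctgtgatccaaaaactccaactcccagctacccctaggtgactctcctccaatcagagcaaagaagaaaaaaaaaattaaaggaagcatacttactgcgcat
Psma6: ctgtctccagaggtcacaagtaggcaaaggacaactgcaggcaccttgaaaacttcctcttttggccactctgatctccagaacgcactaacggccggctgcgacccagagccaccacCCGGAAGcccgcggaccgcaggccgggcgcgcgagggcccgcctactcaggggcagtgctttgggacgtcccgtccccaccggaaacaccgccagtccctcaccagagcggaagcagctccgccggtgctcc
Psmd12: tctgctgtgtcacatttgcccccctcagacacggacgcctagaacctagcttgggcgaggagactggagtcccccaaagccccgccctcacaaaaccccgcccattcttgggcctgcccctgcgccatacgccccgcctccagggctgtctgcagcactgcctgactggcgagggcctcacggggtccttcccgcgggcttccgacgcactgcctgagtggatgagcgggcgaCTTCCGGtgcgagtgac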

How the data were processed

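Liver RNA of 6 mice was sequenced, and diet and replicate were taken from the sample labels. The authors deposited read counts per gene, as whole numbers without normalization, and FPKM, in which counts are divided by gene length and library size. The log2 fold changes and p-values that the authors deposited were not used. The submitters' processing notes name STAR, HTSeq, DESeq2, edgeR and GRCm39, while the gene lengths behind FPKM equalled those of GENCODE M21 (GRCm38) within 0.1% for 94.8% to 95.0% of genes. Positions are those of M21. RNA was isolated with the RNeasy kit. The library kit, strand and tool versions are not given in the sources used here.

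Diet was tested on the counts with edgeR 4.0.16 under R 4.3.3 (filterByExpr by diet, TMM factors of 0.886 to 1.07, glmQLFit and glmQLFTest, no covariate), with p-values adjusted by Benjamini-Hochberg over 13105 genes. The step was tested on simulated counts that varied less between libraries than these livers did and had no trend with length. The livers had a common coefficient of variation, beyond sampling error, of 27.8%. How the step performs at that spread was not tested. Exact permutation tests used scipy 1.17.1. Alternatives were DESeq2 1.42.0, limma-trend (limma 3.58.1) on log2(FPKM + 1) or log2(FPKM + 0.1), upper-quartile or RLE factors, no filter, library sizes alone, a mean of at least 50 counts, a loess correction of fold changes for length, a replicate block and leaving out each liver. Copies were found with minimap2 2.31 (at least 90% identity over 200 bases), and adding their counts was chosen after seeing the data. Sampling error was not set apart from the spread between livers for the members. The labels do not say how the samples of a diet relate beyond being separate mice.

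The members, gene lists and classes were chosen with earlier results of these data known. Genes named are every called member, the immunoproteasome subunits and their counterparts, the highest and lowest log2 fold change of each class, members that were not tested or have no class, and called pathway genes. The other named genes were chosen after their values were seen.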

Additional observations from a re-analysis of the deposited data

How the results depend on the processing

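The count of 3 called proteasome genes was 1 with library sizes alone, 7 with DESeq2, 15 before adjustment (p of at most 0.05) and 0 to 1 when a liver was left out, while the other settings without a block gave 2 to 4. The count of 2 called pathway genes was 1 with library sizes alone, 4 before adjustment (2 higher and 2 lower, where 20.9% of all genes passed) and 0 to 2 when a liver was left out. With the replicate number as a block the counts were 1 and 0; livers of the same number did not deviate together (correlations of -0.08, 0.09 and -0.04), so that this pairing has no support in the data. Equal counts did not always mean the same genes: without the filter on low counts Psme2b was called and Psma2 was not. Psme2 was called in every setting except without RD1, without RD2 and with copies added. Leaving out livers moved the median of the assembly chaperones between -0.10 and 0.15. It moved the ratio of Psmb9 to Psmb6 between -0.23 and 0.19 (HCD minus RD, log2), and the sign turned without RD3 (0.19) and without HCD3 (0.08). The cause of these changes was not tested. With library sizes alone the median of all genes was -0.06 and that of the members 0.07. Depth limits Psma8 and Psmc3ip, at low counts, and 3 livers per diet limit the rest.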

Other observations

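Other members share sequence with a listed copy. Gm13835, a pseudogene identical to Psma3 over 685 bases, had 30.5, 26.2 and 32.2 CPM with RD and 43.0, 56.3 and 70.3 CPM with HCD. Psma3 took 67.8%, 69.1% and 68.8% of the pair's counts in the RD livers and 64.7%, 61.0% and 61.0% in the HCD livers, so that here the share of the parent gene was lower with HCD, the opposite of Psme2. The log2 fold change was 0.51 for Psma3 alone and 0.66 for the sum of Psma3 and its copies (edgeR adjusted p = 0.12 and 0.078). Of 9 pairs of a member and a copy with at least 100 counts, other than Psme2 and Psme2b, the share of the member was lower in all HCD livers than in all RD livers for 3, higher for 1 and overlapped for 5. The pair of Psme2 and Psme2b and the pair of Psma3 and Gm13835 were singled out after their values were seen.

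By level, in FPKM averaged over 6 livers, the core subunits ran from 0.604 for Psma8 to 136 for Psmb5, and the cap subunits from 17.9 for Psmd1 to 76.2 for Psmc5. The assembly chaperones ran from 3.34 for Psmg3 to 20.3 for Psmg1, with a median of 10.2 against 41.6 for the alpha and 71.7 for the constitutive beta subunits. The activators and the inhibitor ran from 7.49 for Psmf1 to 58.1 for Psme1.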
